A study of Homo sapiens with 30 samples.

Results

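The 5′ ends of RNA that an antibody against N6-methyladenosine recovered from cells without PCIF1 are described here, as the difference between immunoprecipitate (IP) and input. Of the 30 samples in the series, 6 make up this experiment: 3 IP and 3 input samples of MEL624 cells, an established human melanoma line, with the genotype PCIF1 KO. Another 6 samples, 3 IP and 3 input, come from MEL624 control cells (wild type with a random sgRNA) and serve only as the comparison. Both genotypes were grown in DMEM with serum and taken through m6Am-Exo-Seq with the same antibody, the mouse monoclonal clone 212B11 of Synaptic Systems. The design text calls the 3 samples of each kind biological replicates, and whether the KO replicates are separate clones is not given in the sources used here. If they are cultures of 1 clone, the p-values measure only the spread between those cultures. No recovery without antibody was analysed here, so binding through a methyl group and unspecific recovery cannot be told apart in any value below.

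The first transcribed nucleotide of a capped mRNA is often an adenosine that is methylated on its ribose. PCIF1 adds a methyl group at N6 of that adenosine to give m6Am, while internal m6A is made by the METTL3-METTL14 complex at sites that mostly read D-R-A-C-H (D stands for A, G or T, R for A or G, and H for A, C or T). Antibodies against m6A bind both modifications. In m6Am-Exo-Seq, RNA is fragmented and a 5′ exonuclease removes fragments without a cap before the IP, which enriches capped starts. Without PCIF1 the cap-adjacent N6 methyl group is not made, and an RNA can then be recovered through internal m6A near its start or through binding of another kind.

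The values are CPM (the reads of a gene scaled to a common library total) at 16009 gene starts, which rest on 2836120 to 3544669 reads in the KO inputs and 1753164 to 2177874 reads in the KO IPs. A gene was called when limma gave a Benjamini-Hochberg adjusted p under 0.05 over all 16009 genes. The deposited scaling is not a plain division by the reads listed here, so a value is not an exact share of its library. A gene that is higher in IP is higher relative to the other genes of that library. Melanocyte lineage markers were few in the table, with 6 of 17 among its genes (EDNRB, MC1R, MITF, PAX3, RAB27A and RAB38), and their summed level was 85.2 to 101 CPM in the KO inputs. Of the keratinocyte, fibroblast, leukocyte and endothelial markers, 3 of 28 were in the table. In the KO inputs SFN was at 8.2 to 13.1, PDGFRB at 5.6 to 11.7 and CD68 at 91.0 to 144 CPM. The leukocyte marker CD68, whose start lies near another gene, was thus about as high as the 6 lineage markers together. PMEL, MLANA, TYR, DCT and SOX10 were looked for and were not found among the 16009 genes. In bulk RNA, fewer cells that hold a transcript and less of it per cell cannot be told apart.

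PCIF1 itself was measured at 70.4, 78.0 and 77.1 CPM in the KO inputs and at 35.4, 41 and 28.7 CPM in the KO IPs. All 3 IP values were lower than all 3 input values, and the log2 difference was -1.12 ± 0.14 (SE, n = 3 against 3, adjusted p = 8.2e-07). In control inputs the mean was 53.3 ± 4.27 CPM (SD, n = 3), so the transcript start was present in KO cells, and this level does not check the knockout because an edited gene can still be transcribed.

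The KO cells kept a wide spread of recovery between genes. Of 16009 genes, 9512 (59.4%) were called, 4546 (28.4%) higher and 4966 (31.0%) lower in IP, and the 3 IP and 3 input values did not overlap for 9817 genes (61.3%). The median log2 difference was -0.07, the 5th percentile was -2.08 and the 95th percentile was 2.28. Of the called genes, 1059 were at least 4-fold higher and 816 at least 4-fold lower in IP. The balance of the directions depends on the scaling: with the columns centred on cytosolic ribosomal protein mRNAs, 7080 genes were higher and 2543 lower, the share of calls that were higher went from 47.8% to 73.6%, and the median of all genes moved from -0.07 to 0.50. Directions below are relative to the deposited scaling unless the centred value stands beside them. Centred counts below are to be set against the 7080 and 2543 of all 16009 genes, and centred medians against 0.50.

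The mRNAs recovered most strongly without PCIF1 code for proteins of varied function, among them FAM32A and HNRNPM of pre-mRNA splicing, RRP15 of ribosome biogenesis and PDCD4 of translation control. Named by size were the 12 highest protein-coding genes among those called, with a mean log2 CPM of at least 5 over the KO columns, no overlap between IP and input values, and a start not inside or within 200 bases of another gene on the same strand. They ran from PDCD4 at 3.01 ± 0.11 to PLEKHA4 at 3.84 ± 0.20 on the log2 scale. Other coding genes outside these limits were as high, such as MT-ND2 (3.92), ZNF407 (3.49), MT-ATP8 (3.26) and HNRNPA3 (3.20), and since the rule asked for no overlap, the separation of the libraries is given for these genes as a description only. Their first 20 bases are shown because PCIF1 would act on the first one, which stands in capitals. Sequences are from the hg38 genome along the GENCODE canonical transcript, and the cells may start at another base.
PLEKHA4: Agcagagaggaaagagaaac, chr19:48868598-48868617, minus strand
FAM32A: Ggcactccagctaccgaagc, chr19:16185410-16185429, plus strand
INHBA: Acagtgccaataccatgaag, chr7:41703071-41703090, minus strand
RRP15: Aggtgacgcttccggcgcag, chr1:218285293-218285312, plus strand
HNRNPM: Acacaaagcccagacgcgga, chr19:8444975-8444994, plus strand
EPG5: Atgtgacagtccggaggcca, chr18:45967310-45967329, minus strand
PIN4: Ggttcagcgttcaacaacaa, chrX:72181757-72181776, plus strand
SLMAP: Agtcagagtcactatggcgg, chr3:57756309-57756328, plus strand
WDR6: Cccttcttagccgtggctgc, chr3:49007391-49007410, plus strand
GFPT2: Agctggagcccgcggagccc, chr5:180353317-180353336, minus strand
EAPP: Agggactggacttgcagtgt, chr14:34539682-34539701, minus strand
PDCD4: Agagactctccgaggcggcg, chr10:110871928-110871947, plus strand
The first base was an adenosine in 9 of these 12 and a G or C in FAM32A, PIN4 and WDR6. The rule that picked these 12 did not use the first base, and adenosine starts made up 46.1% of 12047 coding genes.

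PLEKHA4, a pleckstrin homology domain protein, was at 10.1, 13.6 and 6.57 CPM in input and at 158, 131 and 129 CPM in IP. That is a 14.3-fold ratio and an adjusted p of 2.95e-12. FAM32A, a splicing factor that joins the spliceosome late in the reaction, went from 108, 113 and 99.5 CPM to 1400, 1240 and 1240 CPM. That is a log2 difference of 3.60 ± 0.09 (SE, adjusted p = 4.71e-16) at a start that is not an adenosine. HNRNPM, a pre-mRNA binding protein, was at 199, 203 and 177 CPM in input and at 1830, 2060 and 1780 CPM in IP (log2 difference 3.29 ± 0.09). WDR6, the partner of a tRNA ribose methyltransferase, rose from 111, 129 and 116 CPM to 1010, 1140 and 954 CPM (3.12 ± 0.09). INHBA, a subunit of activins, was at 12.1, 10.6 and 12.4 CPM in input and at 126, 115 and 141 CPM in IP. RRP15, a ribosome biogenesis factor, was at 25.9, 22.3 and 14.4 CPM in input and at 245, 196 and 208 CPM in IP. EPG5, an autophagy tethering factor, was at 31.1, 34.4 and 35.5 CPM in input against 314, 269 and 323 CPM in IP. PDCD4, an inhibitor of the helicase eIF4A, went from 23.3, 22.8 and 26.4 CPM to 178, 206 and 202 CPM. SLMAP, a membrane-anchored subunit of a phosphatase complex, showed 27.9, 29.8 and 30.6 CPM in input and 215, 278 and 282 CPM in IP. Of the remaining genes, PIN4 is a peptidyl-prolyl isomerase, GFPT2 an enzyme of the hexosamine pathway and EAPP a phosphoprotein that binds E2F factors, and their log2 differences were 3.13, 3.09 and 3.02.

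The least recovered mRNAs include those of a protein-sorting ATPase, a mitochondrial chaperone, a telomere protein, a histone and 2 ribosomal proteins. By the same rule, the 12 lowest ran from DELE1 at -2.62 ± 0.16 to ATP13A1 at -3.31 ± 0.12, while genes outside its limits, such as MRPL10 (-2.76) and ZNF511 (-2.75), lay in the same range. Their starts are shown for comparison with those above, with the first base in capitals.
ATP13A1: Gctaggaaagatggcggcag, chr19:19663657-19663676, minus strand
TRAP1: Gctctgggagtacgacatgg, chr16:3717505-3717524, minus strand
SIVA1: Gtcgttggtaaggggctggc, chr14:104753147-104753166, plus strand
RNF11: Agtgcccgagccggcctcgt, chr1:51236273-51236292, plus strand
TERF2IP: Agtgctgcgcttcgcggcag, chr16:75647773-75647792, plus strand
ANXA6: Gcggttgctgctgggctaac, chr5:151157760-151157779, minus strand
UHMK1: Gggactcgggtgcaccacgg, chr1:162497818-162497837, plus strand
H4C3: Actgcgataggaatcatgtc, chr6:26103933-26103952, plus strand
RPL4: Aagcacttccttttcctgtg, chr15:66504836-66504855, minus strand
TTC17: Gcttccggtgtgagcggccc, chr11:43358920-43358939, plus strand
RPL12: Cctctcggctttcggctcgg, chr9:127451387-127451406, minus strand
DELE1: Ctttctagccgctgtcccaa, chr5:141923871-141923890, plus strand
An adenosine stood first in 4 of these 12 (RNF11, TERF2IP, H4C3 and RPL4). Adenine made up 5% to 16% of the first 100 bases in 11 of them and 25% in H4C3, against 15% to 47% in the 12 highest. The D-R-A-C-H motif was found 0 times in the first 100 bases of 8 of the 12 lowest and of 2 of the 12 highest (HNRNPM and SLMAP).

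ATP13A1, an ATPase of the endoplasmic reticulum, was at 105, 103 and 95.2 CPM in input and at 8.90, 10.8 and 11.0 CPM in IP. TRAP1, the mitochondrial Hsp90, was at 354, 373 and 339 CPM in input against 30.5, 43.9 and 42.4 CPM in IP, a 9.24-fold lower level (adjusted p = 3.16e-13). TERF2IP, a shelterin subunit at telomeres, was at 119, 115 and 107 CPM against 17.7, 18.1 and 12.7 CPM. H4C3, a replication-dependent histone H4 gene, was at 393, 456 and 337 CPM against 59.9, 59.0 and 53.9 CPM. RPL12, a protein of the large ribosomal subunit, was at 2420, 2390 and 2000 CPM in input, and was at 348, 334 and 416 CPM in IP. RPL4, of the same subunit, was at 231, 246 and 196 CPM in input and at 32.9, 32.7 and 37.9 CPM in IP. The other 6 genes were SIVA1 (apoptosis), RNF11 and UHMK1 (a ubiquitin ligase and a kinase), ANXA6 (an annexin), TTC17 and DELE1 (a mitochondrial stress relay), at -2.92 to -2.62.

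**Figure D1:**
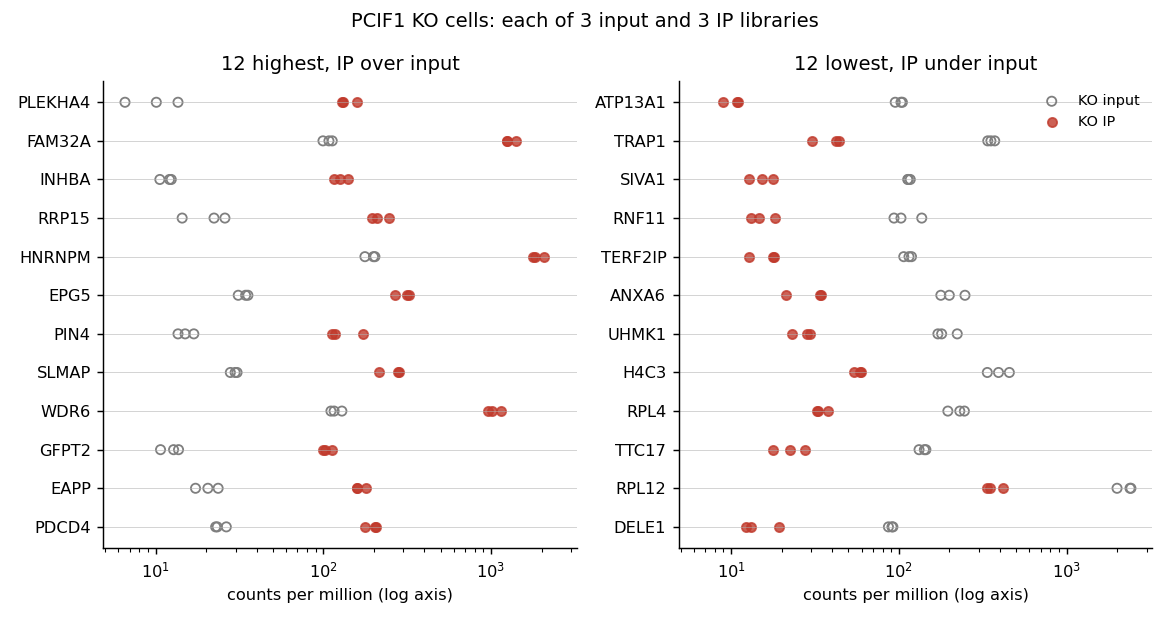
CPM on a log axis in each of 3 KO input libraries (open grey) and 3 KO IP libraries (red) for the 12 highest and 12 lowest protein-coding genes by log2 difference among those that met the limits on abundance, overlap and neighbouring genes. The differences span PLEKHA4 (3.84) to ATP13A1 (-3.31), and the points of a gene do not overlap because the rule asked for it.

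Genes whose canonical transcript starts with another base than adenosine were also among the highest, although the start used in these cells was not measured. By the same rule the 8 highest of them were FAM32A, PIN4, WDR6, NEGR1, IP6K2, TSPYL4, FDPS and SART3, at 2.85 to 3.60. All 8 held at least 1 D-R-A-C-H motif in the first 100 bases, where 63.9% of 12047 coding genes hold 1. The first motif is printed in capitals for 7 of them whose window lies in 1 exon, since an internal site of this form is where METTL3 could act.
FAM32A: ggtccaaaagGGACCcctgaagctg, chr19:16185460-16185484, plus strand
WDR6: acgctctcgaGGACTacgtttggcc, chr3:49007436-49007460, plus strand
NEGR1: tagcagggatGGACAtgatgctgtt, chr1:72282478-72282502, minus strand
IP6K2: ggtgcgagagAAACAataggacgga, chr3:48717186-48717210, minus strand
TSPYL4: ccgctgcggaGGACAaggaactctc, chr6:116254038-116254062, minus strand
FDPS: ggGAACTactcgaccca, chr1:155308866-155308882, plus strand
SART3: actgcggccgAAACCtcggcttcag, chr12:108561124-108561148, minus strand
FDPS, an enzyme of isoprenoid and cholesterol synthesis, was at 101, 105 and 89.4 CPM in input and at 849, 761 and 613 CPM in IP (2.90 ± 0.13). IP6K2, an inositol phosphate kinase, was at 37.1, 37.2 and 32.6 CPM against 277, 266 and 270 CPM. SART3, a recycling factor of U4/U6 snRNPs, was at 77.8, 83.7 and 65.4 CPM against 505, 621 and 508 CPM. A match to these letters is a description of the sequence and was not tested for methylation. The motif is common, and the same 5 letters read in reverse order occurred in 64.8% of coding genes.

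At the other end, the 8 lowest mRNAs with a canonical adenosine start by that rule were RNF11, TERF2IP, H4C3, RPL4, ACTR1B, RPL27, SLC30A9 and YRDC, at -2.85 to -2.44. YRDC, which takes part in a tRNA threonylcarbamoyl modification, was at 201, 202 and 235 CPM in input and at 36.4, 45.4 and 36.1 CPM in IP. ACTR1B, a dynactin subunit, was at 123, 136 and 127 CPM in input and at 20.7, 17.6 and 25.3 CPM in IP. RPL27 fell from 584, 618 and 503 CPM to 105, 84.3 and 89.4 CPM. An adenosine at the canonical start was thus present in mRNAs at both ends of the range.

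Across 12047 coding genes, the first base separated the medians only slightly in KO cells. The median log2 difference was -0.03 for 5549 adenosine starts, -0.40 for 1366 C starts, -0.24 for 5061 G starts and -0.05 for 71 T starts. Control cells gave 0.32, -0.51, -0.17 and -0.42 for the same 4 groups. In each IP library the median of adenosine starts exceeded that of other starts, by 0.23, 0.23 and 0.26 in KO cells and by 0.54, 0.55 and 0.55 in control cells. The 3 KO values all lay below the 3 control values, and an exact permutation test of 3 against 3 cannot go below p = 0.10, so none is given. With the start of the gene record in place of the canonical transcript, the KO contrast was 0.13. TOP-like starts, a C followed by at least 4 pyrimidines as in mRNAs of the translation machinery, had a median of -0.43 over 681 genes. Of them 17.3% were higher and 47.1% lower, beside 27.6% and 35.9% of all coding genes (median -0.16).

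Recovery in KO cells rose with the number of D-R-A-C-H motifs in the first 100 bases. The medians were -0.36 for 0 motifs (4346 genes), -0.20 for 1, 0.05 for 2, 0.21 for 3 and 0.40 for 4 or more (434 genes). The share of genes called higher went from 22.4% to 40.6% over the same groups, beside 28.4% of all genes. The position of the motif made little difference where a gene held 1, with medians of -0.18, -0.24, -0.17 and -0.20 for the 4 successive 25-base windows. The reversed letters (H-C-A-R-D), added for comparison after the data were seen, gave a similar gradient of -0.29, -0.19, -0.04, 0.15 and 0.26. Genes with 2 or more motifs exceeded genes with none by 0.48, and genes with 2 or more reversed motifs exceeded genes without one by 0.34. Control cells gave 0.37 and 0.33 for these contrasts.

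Composition of the 5′ end followed recovery more closely than the motif did. This feature was chosen after the data were seen: first base, pyrimidine start, motif, GGAC, first exon length, exon number and GC share were looked at first, then the reversed motif and 1015 pentamers, and then the share of each base, so the values are descriptions without a test. The median log2 difference in KO cells was -0.75 at an adenine share of up to 10% of the first 100 bases (2496 genes), then -0.34, -0.04 and 0.40 in steps of 5 percentage points, and 1.0 above 25% (1071 genes). Of the genes above 25%, 57.6% were higher and 8.50% lower in IP, while of those up to 10%, 11.9% were higher and 57.6% lower. Among all coding genes 27.6% were higher and 35.9% lower. Spearman's rho between adenine share and enrichment was 0.392 in KO cells and 0.379 in control cells across genes, which share libraries and base composition. The difference between the outer groups was 1.73, 1.71 and 1.75 in the 3 KO IP libraries, and 1.34, 1.47 and 1.44 in the 3 control IP libraries, which come from other cells. With the start of the gene record it was 0.93, against 1.64 to 1.78 under the other settings tried. The order held within adenosine starts, from -0.66 to 1.04, and within other starts, from -0.80 to 0.89.

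The motif contrast depended on how composition was held. Within bands of GC share, genes with 2 or more motifs exceeded genes without by 0.25 to 0.46, and the reversed letters gave -0.02 to 0.13. Within bands of adenine share, the motif contrast was 0.02, 0.04, -0.07, -0.11 and -0.37 up to a share of 30%. Above 30% it was 0.46, in the opposite direction to the 3 bands before it, and that band holds 27 genes without a motif. The reversed letters gave -0.01, -0.13, -0.27, -0.20 and -0.08 in the lower bands, below the motif in 4 of these 5, and 0.16 in the last. None of the 18 D-R-A-C-H pentamers compared was among the 20 with the largest difference between genes with and without them at matched GC share, and their median difference was 0.13 against 0.00 for all pentamers, with 15 of 18 above 0. The reversed pentamers had a median of 0.07, with 12 of 18 above 0. The parts that adenine share and the motif have in recovery were not separated by a test.

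**Figure D2:**
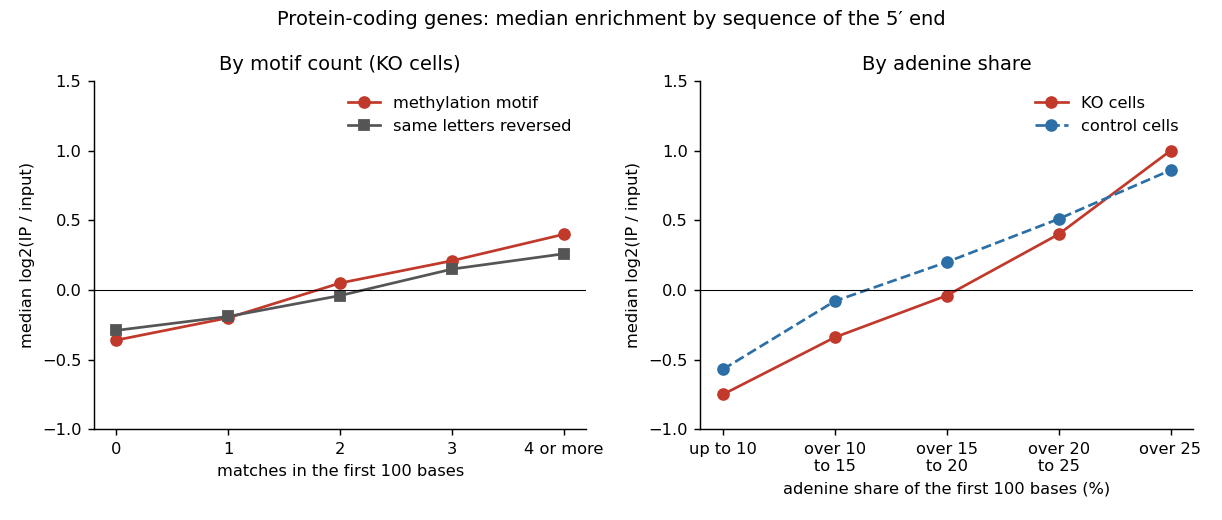
Median log2(IP / input) of coding genes by the number of motif matches in KO cells (left, red, with the reversed letters in grey) and by adenine share in KO (red) and control cells (blue, dashed) (right). Medians rise from -0.36 to 0.40 with motif count and from -0.75 to 1.0 with adenine share in KO cells.

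Genes with a long first exon were recovered more, and the difference was larger in every KO IP library than in every control IP library. The median was 0.50 for 502 genes with a first exon over 1000 bases, and -0.35 for 3867 genes with 201 to 500 bases. Of those over 1000 bases 46.2% were higher and 18.5% lower, beside 27.6% and 35.9% of all coding genes. The median of long first exons exceeded that of the rest by 0.67, 0.73 and 0.62 in the 3 KO IP libraries and by 0.19, 0.20 and 0.26 in the 3 control libraries, without overlap. Genes with a single exon (271) had a median of 0.51 in KO and 0.39 in control cells, and those without a neighbouring gene had 0.45 and 0.59. Within each band of adenine share the long first exons stayed higher, from -0.03 against -0.77 at up to 10% to 1.69 against 0.94 above 25%. TSPYL4, an intronless gene of the nucleosome assembly protein family, was at 29.9, 30.4 and 22.8 CPM in input and at 215, 217 and 192 CPM in IP. RBM15B, a subunit of the m6A writer complex with a first exon of 6624 bases, was at 83.3, 92.6 and 95.9 CPM against 145, 148 and 143 CPM (0.68 ± 0.11), while it was at -0.43 in control cells (difference 1.11 ± 0.16, adjusted p = 2.84e-05).

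**Figure D3:**
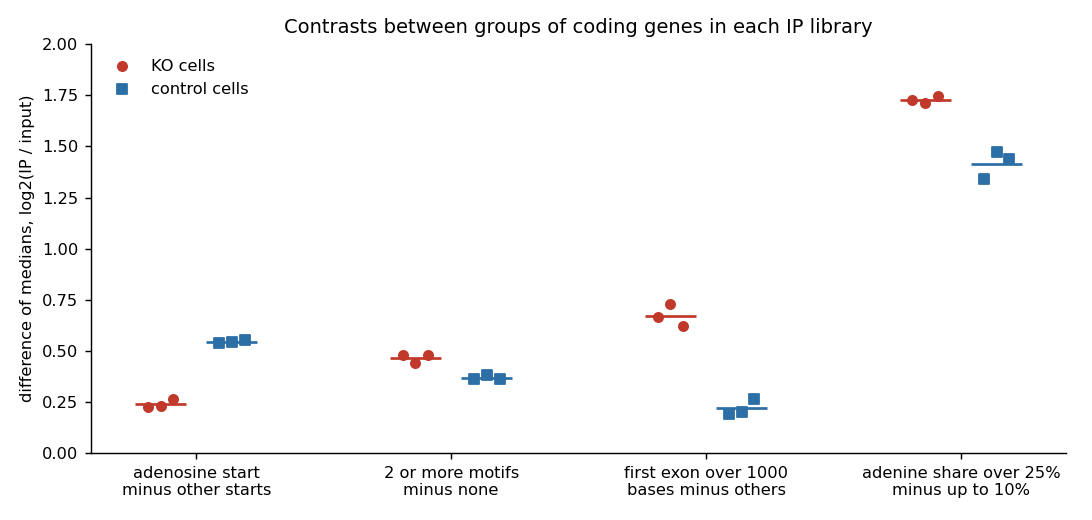
Difference of median log2(IP / input) between groups of coding genes, 1 point for each IP library and a bar at the mean of 3, in KO (red circles) and control cells (blue squares). The adenosine-start contrast is 0.23 to 0.26 in KO and 0.54 to 0.55 in control libraries, while the first-exon contrast is 0.62 to 0.73 and 0.19 to 0.26.

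Among the genes of m6A metabolism, recovery differed from member to member, and the counts stand beside 28.4% higher and 31.0% lower of all genes. Of 8 subunits of the writer complex, 3 were higher in IP and 0 lower (median 0.04): the catalytic METTL3 (0.85 ± 0.11) and the RNA-binding RBM15 (0.98 ± 0.15) and RBM15B. METTL14, WTAP, CBLL1, VIRMA and ZC3H13 were not called, at -0.40 to 0.07. The demethylase ALKBH5 was at 81.8, 103 and 93.0 CPM in input and at 412, 393 and 355 CPM in IP, and this log2 difference of 2.06 exceeded that in control cells by 1.43 ± 0.15 (adjusted p = 9.27e-07). The other demethylase gene FTO was called at 0.53 ± 0.21 (adjusted p = 0.0378), and the call was lost without IP library 1 (adjusted p = 0.14), IP library 2 (0.0574) or input library 3 (0.16). Of 12 readers, 4 were higher and 4 lower (median -0.17), or 7 and 2 (median 0.39) when centred on ribosomal protein mRNAs. That centring gave 7080 higher and 2543 lower of all 16009 genes (median 0.50). YTHDC1, the nuclear reader, was at 63.5, 49.9 and 58.5 CPM in input and at 213, 182 and 190 CPM in IP, and YTHDF2, YTHDF3 and IGF2BP2 were at 0.72, 0.93 and 0.93. HNRNPC, which binds uridine tracts that m6A exposes, was lower, from 697, 696 and 535 CPM to 283, 252 and 231 CPM, as were YTHDC2, PRRC2A and HNRNPA2B1 at -1.14, -0.65 and -0.28. Centring turned the sign of the gene HSPH1 from the same -0.28, so the direction of HNRNPA2B1 depends on the scaling. Of 5 further genes for adenosine methylation, METTL16, which methylates U6 snRNA, was higher at 0.75 ± 0.20, and TRMT112 was not called, at 0.15. ZCCHC4, METTL4 and METTL5 were lower at -0.86, -0.60 and -0.46 (METTL5 at 0.11 and not called when centred on ribosomal protein mRNAs). These members did not move as a group.

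The genes of the cap showed the same mixture, again beside 28.4% higher and 31.0% lower of all genes. RNMT, which methylates the cap guanosine, was at 35.7, 36.3 and 35.2 CPM in input and at 175, 147 and 165 CPM in IP (2.18 ± 0.10). CMTR1, which methylates the ribose of the first nucleotide, was higher at 0.99 ± 0.17, and CMTR2, which methylates that of the second, was lower at -2.11 ± 0.22, from 19.3, 21.2 and 30 CPM to 5.96, 3.97 and 6.37 CPM. EIF4E2, a cap-binding translational repressor, had the largest difference of the cap genes listed here, from 13.0, 17.1 and 18.3 CPM to 96.7, 133 and 143 CPM (2.94 ± 0.16). In the cap-binding list 4 of 9 were higher and 2 lower, the latter EIF4A1 and EIF4EBP1 at -1.10 and -0.61. Centred on ribosomal protein mRNAs, 6 of this list were higher and 1 lower, beside 7080 and 2543 of all 16009 genes. Of 9 decapping and 5′ decay genes, DCP1A, XRN1 and XRN2 were higher at 1.16, 0.57 and 0.46, while NUDT16, DCP2, EDC3 and EDC4 were lower at -1.67 to -0.70. When centred, 4 of these 9 were higher and 2 lower. The call of the gene XRN1 was lost without IP library 3 (adjusted p = 0.0868).

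Of 14 RNAs often described with internal m6A, 6 were higher and 2 lower (median 0.23), beside 28.4% higher and 31.0% lower of all genes. Centred on ribosomal protein mRNAs the counts were 11 and 0, beside 7080 and 2543 of all 16009 genes. In control cells 8 of them were higher and 4 lower (median 0.76). NEAT1, a nuclear paraspeckle RNA, was at 336, 383 and 556 CPM in input and at 1100, 1100 and 1350 CPM in IP. Its difference of 1.51 ± 0.15 exceeded that in control cells by 1.26 ± 0.22 (adjusted p = 0.000229). MALAT1, ACTB, KLF4, CCND1 and ATF4 were higher at 0.54, 0.36, 0.54, 0.70 and 0.68. ATF4, the transcription factor of the integrated stress response, was nevertheless 1.20 ± 0.14 below its control value on the log2 scale (adjusted p = 3.41e-06). MAT2A, which makes S-adenosylmethionine and carries METTL16 sites in its 3′ UTR, was lower at -0.88 ± 0.12, and HSPH1, a chaperone, at -0.28 ± 0.12, a value that was 0.28 and not called when centred on ribosomal protein mRNAs. MYC, JUN, JUNB, BSG, HSPA1A and HSPA1B were not called, and this assay covers 5′ ends only.

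Messenger RNAs of ribosomal proteins were mostly depleted in the KO IP on the deposited scale. Of 83 cytosolic ribosomal protein genes 50 (60.2%) were lower and 17 (20.5%) higher, beside 31.0% and 28.4% of all genes. Their median of -0.49 became 0.07 when centred on these mRNAs themselves. Their share of all reads was 5.34% ± 0.232 in IP against 8.06% ± 0.741 in input (SD, n = 3). The family was not uniform: RPS9 was at 1250, 1250 and 966 CPM in input and at 4130, 3790 and 2890 CPM in IP, and RPS15 and RPL26L1 were also higher at 1.62 and 1.63. RPL5 was not called, at 0.09 ± 0.09, but stood 1.71 ± 0.13 above its control value (adjusted p = 3.14e-08). Control IPs held a smaller share of ribosomal protein reads, 2.80% ± 0.0841 against 8.08% ± 0.329 in input. Among 20 other TOP mRNAs 9 were lower and 5 higher (median -0.33, or 0.23 centred), with EIF3E and TPT1 at -1.65 and -1.04 and EEF1D and BTF3 at 1.48 and 1.39. NPM1, the nucleolar phosphoprotein, was at 2630, 2860 and 2910 CPM in input and at 2620, 2770 and 2940 CPM in IP, with overlapping values. Mitochondrial ribosomal protein genes gave 43 lower and 14 higher of 77 (median -0.56, or 0.00 centred), from MRPL10 at -2.76 to MRPL50 at 1.78 among those named here.

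Nuclear genes of oxidative phosphorylation were lower in 39 (50.6%) and higher in 21 (27.3%) of 77 cases, beside 31.0% and 28.4% of all genes. Their median was -0.31, or 0.25 centred on ribosomal protein mRNAs. ATP5F1B, the catalytic subunit of ATP synthase, was at 1660, 1910 and 1610 CPM in input and at 295, 349 and 332 CPM in IP. Its difference of -2.41 ± 0.09 was 2.16 ± 0.13 below that in control cells on the log2 scale (adjusted p = 8.91e-09). UQCRB, a complex III subunit, went the other way, from 139, 169 and 132 CPM to 637, 601 and 617 CPM, and was 2.01 ± 0.13 above control cells (adjusted p = 8.91e-09). Cholesterol synthesis genes were lower in 12 (57.1%) and higher in 4 (19.0%) of 21 cases (median -0.47, or 0.09 centred). INSIG1, CYP51A1 and SQLE were at -1.61, -1.09 and -1.01, and FDPS and NSDHL at 2.90 and 1.73. Among 423 genes with ZNF symbols, 140 (33.1%) were lower, near the share of all genes, and 77 (18.2%) higher (median -0.36, or 0.20 centred). ZNF407 and ZNF511 marked the extremes of those with enough reads to name, at 3.49 and -2.75.

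Genes for RNA-binding and splicing proteins and the proteasome went both ways. Their counts stand beside 28.4% higher and 31.0% lower of all genes. When centred on ribosomal protein mRNAs, 7080 of all 16009 genes were higher and 2543 lower (median 0.50). Of 23 hnRNP genes 10 were higher and 6 lower (median 0.01), or 16 and 4 (median 0.57) when centred on ribosomal protein mRNAs. HNRNPA3 was at 152, 150 and 132 CPM in input and at 1480, 1260 and 1260 CPM in IP, although its start lies near another gene, and HNRNPDL was higher at 1.58 ± 0.09. RALY and HNRNPF were lower, at -1.40 and -1.15. SR protein genes gave 6 lower and 2 higher of 13 (median -0.09, or 0.47 with 2 lower and 7 higher when centred). TRA2B was at 192, 213 and 197 CPM in input and at 673, 676 and 659 CPM in IP, and SRSF2 was at 257, 220 and 224 CPM against 110, 104 and 131 CPM. The SRSF2 difference of -1.03 ± 0.10 was 1.26 ± 0.14 below its control value on the log2 scale (adjusted p = 2.11e-06). Of 41 spliceosome proteins 17 were higher and 14 lower (median 0.16), or 23 and 6 (median 0.73) when centred, with SF3B1 at 2.56 and SF3B3 at -2.14, 2 subunits of the same complex. Of 35 proteasome genes 16 were higher and 14 lower (median 0.27), or 22 and 8 (median 0.83) when centred, with PSMC2 and PSMC6 of the ATPase ring at 2.63 and 2.74 and PSMD13 and PSMA6 at -2.33 and -2.05.

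Immediate-early genes were higher in 12 (42.9%) and lower in 6 (21.4%) of 28 cases, beside 28.4% and 31.0% of all genes. Their median was 0.51, and centred on ribosomal protein mRNAs they gave 19 and 0 (median 1.07). Of all 16009 genes, 7080 were higher and 2543 lower when centred (median 0.50). FOSL1, an AP-1 subunit, was abundant, at 1770, 1620 and 1590 CPM in input and 6400, 6380 and 5570 CPM in IP, and its difference of 1.88 ± 0.09 was 0.01 ± 0.13 from that in control cells (adjusted p = 0.959). DUSP4, a MAP kinase phosphatase, and CCN2, a matricellular protein, were higher at 1.39 and 1.29, and KLF6 and IER3 were lower at -0.85 and -0.80. Replication-dependent histone genes gave 16 higher (31.4%) and 14 lower (27.5%) of 51 (median 0.08), near the shares of all genes. When centred they gave 28 and 6 (median 0.64). H3C13 was at 2.82 and H4C3 at -2.77, and reads of near-identical histone copies may be split between them. Glycolysis genes gave 6 higher (33.3%) and 8 lower (44.4%) of 18 (median -0.12, or 0.45 centred), with the glucose transporter SLC2A1 at 1.75 and PKM at -1.29.

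**Figure D4:**
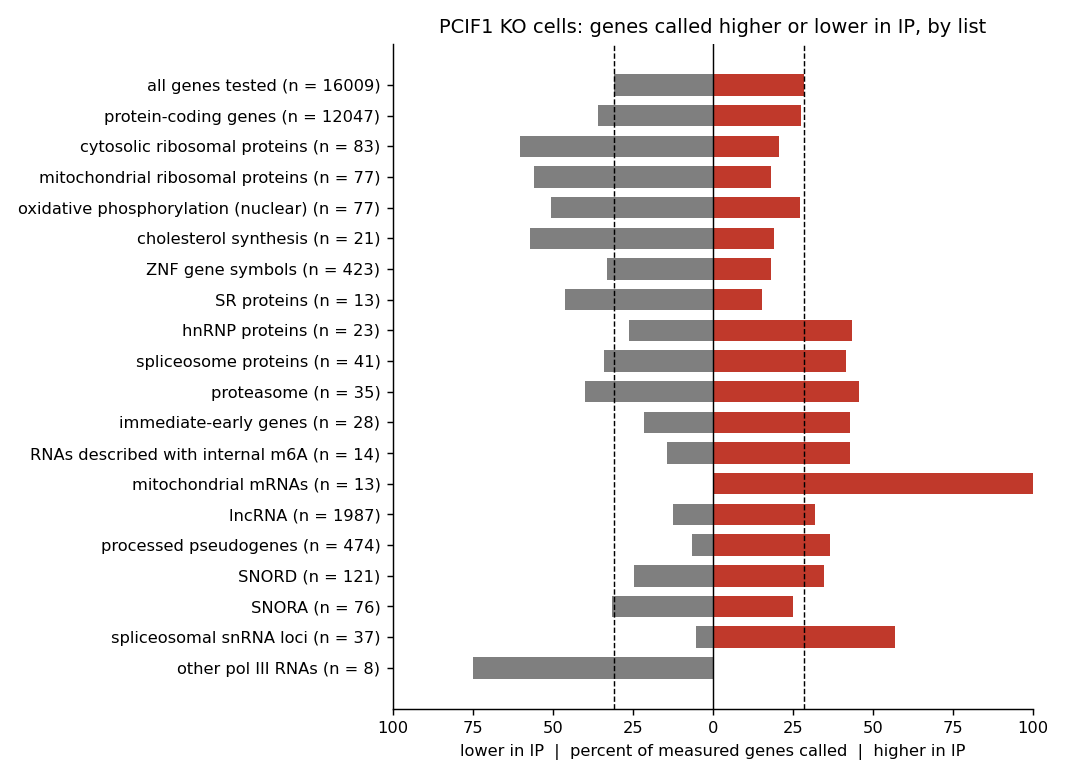
Percent of the measured genes of each list that were called higher (red, to the right) or lower (grey, to the left) in KO IP than in KO input on the deposited scale. Dashed lines mark all 16009 genes tested (28.4% higher, 31.0% lower). The 13 mitochondrial mRNAs were all higher, and 60.2% of ribosomal protein mRNAs were lower (31 of 83 when centred on those mRNAs).

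Among the 10 most abundant mRNAs of the KO inputs, 8 were lower in IP, 1 was higher and 1 was not called. Of all genes, 31.0% were lower and 28.4% higher. These 10 were picked on their input level, which leans the difference downwards, and the ribosomal protein mRNAs among them are also counted above. FTH1, the heavy chain of the iron store ferritin, was at 5880, 5900 and 5010 CPM in input and at 10500, 10800 and 9030 CPM in IP. Its difference of 0.86 ± 0.11 was 1.02 ± 0.16 below its control value on the log2 scale (adjusted p = 7.51e-05). FTL, the light chain, was lower, at 6430, 5930 and 4590 CPM in input and at 3920, 3750 and 3180 CPM in IP. RPLP1, RPL8, RPS16, RPS20, RACK1 and GAPDH were lower at -2.40 to -0.74, and RPL36 was lower at -0.29 but 0.27 and called higher when centred on ribosomal protein mRNAs, and the call of the gene RPL36 was lost without input library 2 (adjusted p = 0.0611). VIM, an intermediate filament protein, was at 4040, 4300 and 4270 CPM in input and at 4880, 4960 and 4230 CPM in IP (0.15 ± 0.10, adjusted p = 0.18), where the 2 sets overlap.

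RNAs made in mitochondria carry no guanosine cap. All 13 mitochondrial mRNAs were called higher (median 1.54), beside 28.4% of all genes, and 6 of 13 were higher in control cells (median 0.09). MT-ND2, of complex I, was at 5.24, 11.2 and 6.25 CPM in input and at 86.9, 115 and 128 CPM in IP. Its difference exceeded that in control cells by 2.25 ± 0.33 (adjusted p = 4.08e-05). Control cells held 19.5 ± 3.43 CPM in input and 62.6 ± 12.6 CPM in IP (SD, n = 3), so a lower KO input is part of this excess. MT-RNR2, the large mitochondrial rRNA, was at 818, 1020 and 846 CPM against 4820, 5410 and 5660 CPM, and was 2.10 ± 0.15 above control cells (adjusted p = 1.5e-08). MT-TK, a mitochondrial lysine tRNA, went from 26.2, 51.8 and 38.1 CPM to 314, 431 and 444 CPM. Of the 24 mitochondrial tRNA and rRNA genes, 14 were higher, 2 lower and 8 not called (median 1.05), against 3 higher and 13 lower in control cells. MT-TW was lower at -0.81 ± 0.15, and MT-TF was at 0.00 ± 0.15. MT-TY was lower at -1.24 ± 0.50, a call that the gene MT-TY lost without IP library 2 (adjusted p = 0.257), input library 2 (0.105) or input library 3 (0.112). Mitochondrial genes took 1.95% ± 0.359 of reads in the KO IPs and 0.727% ± 0.112 in the KO inputs (SD, n = 3), and 0.946% ± 0.152 and 1.12% ± 0.133 in control cells. The starts of 11 of the 13 mRNAs lie inside or next to another gene of the same strand, so reads of neighbours may be counted together.

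Among small RNAs, the SNORD and SNORA shares in KO cells lay near those of all genes, 28.4% higher and 31.0% lower. Of 121 SNORD genes 42 were higher and 30 lower (median 0.10), against 6 higher and 85 lower in control cells, and of 76 SNORA genes 19 were higher and 24 lower (median -0.48, or 0.08 centred) against 2 and 60. SNORD72, a box C/D RNA, was at 396, 399 and 415 CPM in input and at 2290, 2130 and 2630 CPM in IP, and was 2.25 ± 0.14 above control cells (adjusted p = 8.91e-09). SNORD57 went from 18.7, 15.5 and 18.6 CPM to 162, 166 and 186 CPM, and SNORD32A fell from 6890, 6590 and 5170 CPM to 1800, 1620 and 1440 CPM. Nearly all of these genes lie within a host gene (118 of 121 SNORD), whose reads may be included. Together snoRNAs took 4.71% ± 0.158 of KO IP reads and 4.32% ± 0.171 of KO input reads, and 1.60% ± 0.092 and 4.55% ± 0.352 in control cells. RNU2-2P, a U2 snRNA gene, was at 29.6, 38.0 and 28.7 CPM in input and at 135, 188 and 172 CPM in IP, 2.62 ± 0.21 above control cells (adjusted p = 6.01e-08). Of 37 snRNA loci 21 (56.8%) were higher and 2 (5.41%) lower (median 1.71), most of them near-identical U6 copies with few reads, whose medians depend on the added count. RNAs of RNA polymerase III other than U6 were lower in 6 of 8 cases (median -1.09), or 4 of 8 (median -0.53) when centred: RN7SL1, part of the signal recognition particle, was at 1390, 1420 and 1600 CPM in input and at 358, 377 and 452 CPM in IP. RN7SK was at 95.9, 101 and 113 CPM against 107, 95 and 111 CPM, with overlapping values.

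Long noncoding RNAs and processed pseudogenes were more often higher than lower. In KO cells, of 1987 lncRNA genes 636 were higher and 251 lower (median 0.39). Of 474 processed pseudogenes 174 were higher and 31 lower (median 0.91), beside 28.4% and 31.0% of all genes. ZMPSTE24-DT and HK2-DT, divergent transcripts of 1 exon next to a protease gene and a hexokinase gene, had the largest differences among noncoding genes that passed the rule for naming. ZMPSTE24-DT (chr1:40256333-40257971) was at 16.4, 21.7 and 19.2 CPM in input and at 349, 324 and 356 CPM in IP, an 18.0-fold ratio. HK2-DT (chr2:74832655-74833987) was at 24.2, 20.6 and 24.8 CPM in input and at 296, 302 and 250 CPM in IP. SNHG19, a snoRNA host gene, was lower at -1.80 ± 0.13. Reads of pseudogenes can come from the parent gene. With a mean log2 CPM of at least 3 as the filter, the counts higher fell to 215 lncRNA genes and 27 pseudogenes. That filter kept 9646 genes of all classes, of which 3271 were higher, and the members of each class it kept are not counted here.

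Recovery differed between KO and control cells for 4605 of 16009 genes (28.8%), tested as the difference of the 2 IP to input differences. Across all genes Spearman's rho between the KO and the control difference was 0.67. Several of the strongest KO signals were equally strong with PCIF1 present: HNRNPM was at 3.29 in KO and 3.33 in control cells (difference -0.04 ± 0.13, adjusted p = 0.852), FDPS at 2.90 and 2.87 (0.03 ± 0.18, adjusted p = 0.914) and PIN4 at 3.13 and 3.09 (0.04 ± 0.25, adjusted p = 0.922). A p above the threshold does not show that the genotypes are alike. SLMAP, WDR6 and FAM32A were higher in KO than in control cells by 1.78, 1.28 and 0.85 (adjusted p = 9.81e-07, 6.13e-07 and 3.73e-05), and ATP13A1, TERF2IP and ACTR1B were lower, at -1.56, -1.52 and -1.35, with adjusted p-values of 2.04e-06, 5.43e-06 and 1e-05. Genes named for an extreme KO value lean towards a KO value more extreme than the control value by that choice.

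**Figure D5:**
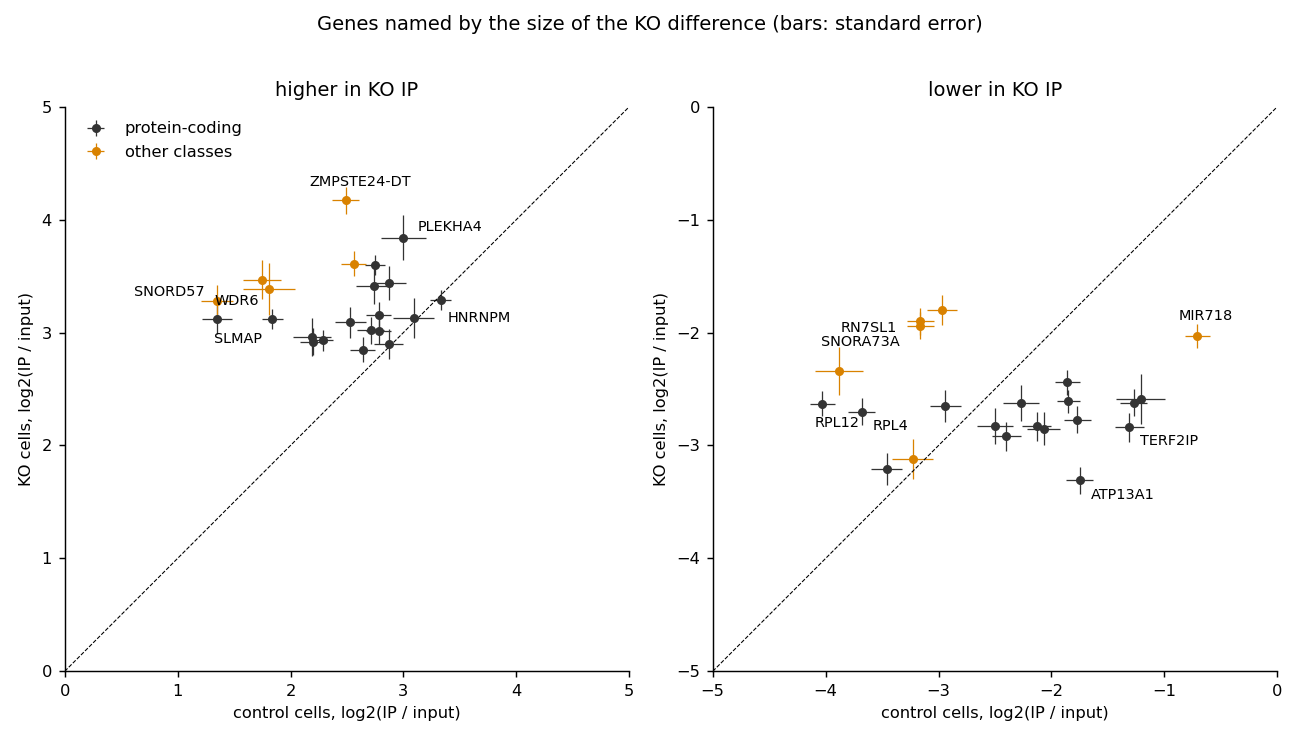
log2(IP / input) in KO against control cells for the 44 genes named by the size of the KO difference, with standard errors as bars and a dashed line where both are equal. HNRNPM lies near the line (3.29 and 3.33), and SLMAP (3.12 and 1.35) and ATP13A1 (-3.31 and -1.75) lie away from it.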

How the data were processed

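MEL624 cells were profiled by m6Am-Exo-Seq, which sequences fragments from capped 5′ ends before (input) and after IP. The authors deposited 1 table of log2 CPM (counts scaled to a common library total) for 16009 gene starts in 12 columns, 3 for each of 4 groups. The submitters' processing notes name the hg38 build, edgeR 3.12.1 run in R 3.3.3, the counter featureCounts, the aligner HISAT2 2.0.4, deepTools 3.0.2 and SAMtools 1.7. The kit marks strand, and whether counting used it is not given in the sources used here, so antisense pairs cannot be told apart. Column names were matched to groups by their labels. Column numbers and the letters of the sample titles differ, so a number is only a name.

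The deposited log2 values were turned back into CPM and reads, of which 100% were whole within 0.01 after removal of an added count of 0.25. Reads behind the listed genes averaged 3243409 in KO inputs and 2032714 in KO IPs, so the IP values are the less precise. No pair of replicates agreed within sampling noise. limma 3.58.1 (R 4.3.3) was fitted with a mean-variance trend to 4 group means over all 12 columns, with genes kept at a log2 CPM of at least 0 in 3 columns, Benjamini-Hochberg adjustment over all 16009 genes, and called at 0.05. SEs are those of the fit. The script was tested on simulated data. GENCODE 44 matched 15903 genes, and sequences are of its canonical transcripts. A start counted as near another gene inside it or within 200 bases on the same strand (3336 genes).

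Named genes were PCIF1, the 12 highest and 12 lowest coding genes, up to 6 each way of other classes, the 10 most abundant, and the 8 extremes by first base, all called, at a mean log2 CPM of at least 5, without overlap of IP and input, and, for coding genes, with no other gene near the start (the 10 most abundant and PCIF1 were taken without these limits). Of each list, up to 3 called members each way with a mean of at least 3 and the most abundant uncalled one were taken, and further members were named after their values were seen. 1 gene of another class that met the rule is not reported here. Members and lists were chosen with earlier results of these data known. Alternatives were scaling, filter, added count, samples in the fit, trend, leaving out each KO library, and transcript start and window for sequence features. The 18 first-stage samples were not used here.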

Additional observations from a re-analysis of the deposited data

Results flagged for a closer look

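Of the 44 genes named for the size of their KO difference, 32 had an IP to input difference that differed between KO and control cells. The call was an adjusted p under 0.05 for the difference itself (limma), and 28.8% of all genes (4605 of 16009) passed it. Of these 32, 21 had a higher and 11 a lower value in KO cells. The 44 genes had been picked on their KO value, which leans the difference away from control, so their count is a description only. The values below are KO minus control on the log2 scale.

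The genes recovered in KO cells and recovered more there than in control cells were PLEKHA4 (0.84), FAM32A (0.85), INHBA (0.57), RRP15 (0.67), SLMAP (1.78), WDR6 (1.28), GFPT2 (0.56), ZMPSTE24-DT (1.69), HK2-DT (1.05), MIR6866 (1.72), MT-TK (1.58), SNORD57 (1.93), NEGR1 (0.77), IP6K2 (0.64) and TSPYL4 (0.72). INHBA passed narrowly, with adjusted p = 0.0499. Those depleted in KO cells and depleted more there than in control cells were ATP13A1 (-1.56), SIVA1 (-0.52), RNF11 (-0.78), TERF2IP (-1.52), UHMK1 (-0.70), H4C3 (-1.0), MIR718 (-1.33), ACTR1B (-1.35), RPL27 (-0.76), SLC30A9 (-1.37) and YRDC (-0.58). Others were depleted in both but less so in KO cells, namely RPL4 (0.99), RPL12 (1.40), SNORA73A (1.54), SNORD32A (1.22), RN7SL1 (1.26) and SNHG19 (1.17). Ribosomal protein mRNAs stood on both sides, with RPL4 and RPL12 less and RPL27 more depleted in KO cells.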

How the results depend on the processing

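With the columns centred on ribosomal protein mRNAs, 7080 genes were higher and 2543 lower in IP. Lower calls then numbered 31 of 83 for cytosolic and 23 of 77 for mitochondrial ribosomal proteins, 21 for oxidative phosphorylation, 70 for ZNF symbols, 5 for cholesterol synthesis, 5 for glycolysis, 4 for other TOP mRNAs and 2 for SR proteins. Higher calls numbered 28 for histones, 19 for immediate-early genes and 16 for hnRNP genes. Among the genes taken by the rules for naming, the sign turned for 14, to RNGTT 0.17, HSPH1 0.28, ZNF706 0.56, RPL36 0.27, MYC 0.39, METTL5 0.11, WTAP 0.51, ALDOA 0.55, IGF2BP1 0.50, UQCRQ 0.47, BSG 0.34, NPM1 0.55, HNRNPAB 0.36 and MT-TF 0.56. This list leaves out members named outside those rules, and HNRNPA2B1 started from the same value as HSPH1. Restricted to genes with a mean log2 CPM of 3 or more, there were 58 ZNF genes lower, and 215 lncRNA genes and 27 pseudogenes higher, among fewer genes tested.

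The motif contrast of 0.48 was 0.50 without neighbouring genes, 0.54 over 200 bases, 0.40 where the KO mean log2 CPM was 5 or more, and 0.33 from the gene record's start. The last 2 settings gave 0.19 and 0.13 for adenosine starts, and the former 0.62 for first exons. The adenine contrast, chosen after seeing the data, was 1.78, 1.72, 1.64 and 0.93 under the same 4 settings. Where a setting moved a value, the cause was not tested.

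Leaving out 1 KO library at a time gave 4240 to 4406 genes higher, 4505 to 4888 lower and 3910 to 4764 differing from control. Motif, adenosine-start, adenine and first-exon contrasts ran from 0.45 to 0.49, 0.22 to 0.25, 1.66 to 1.78 and 0.68 to 0.71.

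A replicate block by column number gave 4661 genes higher and 5139 lower. Same-numbered KO input and IP libraries deviated together at r = 0.197, 0.0697 and 0.244, and each correlated best with its own number, a hint from the data only, so the block is not the main design. Depth limits genes of few reads, above all U6 copies.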
